A study of Mus musculus with 18 samples.

Results

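Mature cells of the mouse mammary epithelium, called mature luminal cells in the labels, were compared between pregnant and virgin C57BL/6 female mice by multiplexed reduced representation bisulfite sequencing. In this assay the enzyme MspI cuts genomic DNA at CCGG, which enriches CpG-rich sequence, and bisulfite turns unmethylated cytosine into uracil, so the share of reads that still show a cytosine is the methylation level of a CpG. The pregnant group held 3 libraries, from day 10, day 16 and day 19 of pregnancy. The virgin group held 2 libraries, from mice aged 3 weeks and 9 weeks. These were 5 of the 18 libraries of the study, chosen by their labelled cell type and state, and the other libraries were of stem cells, progenitor cells and retired breeders. All 5 came from mice of the same strain and sex with no named transgene or agent. The labels give 1 library per stage, do not say whether a library was made from a single mouse or from pooled glands, and give no age for the pregnant mice. Stages therefore stood in for replicates, every p-value measures only the spread between these libraries, and age and pregnancy cannot be told apart.

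Luminal cells line the ducts and alveoli of the mammary gland. Mature luminal cells are known as the compartment that senses oestrogen and progesterone, and in pregnancy prolactin, acting through Jak2 and Stat5a, drives the growth of milk-producing alveoli. CpG-dense promoters are usually free of methylation whatever the state of the gene, while imprinted genes and genes of the inactive X chromosome are methylated on a single copy, and CpG-poor sequence between genes is where tissues usually differ.

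Each CpG was measured as methylated reads over all reads. A total of 992878 CpGs had at least 5 reads in all 5 mature libraries, of 1485193 CpGs listed in any library. They were grouped into 103885 tiles of 1000 bp with at least 3 such CpGs each and a median of 4. The reads of a tile or promoter were summed over its CpGs, so a read over several CpGs was counted at each. The pregnant libraries held 67595125 reads over CpGs at day 10, 33860141 at day 16 and 56771977 at day 19, against 106181107 at week 3 and 117922522 at week 9 in the virgin libraries. The median CpG was read 48, 25 and 39 times in the pregnant libraries, and 76 and 82 times in the virgin libraries. Every pregnant library was thus shallower than both virgin libraries, and depth moved with pregnancy throughout. The day 19 library was also the only mature library deposited with 6 columns instead of 4.

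The mean methylation of mature cells did not separate the pregnant from the virgin libraries. It was 48.3%, 48.8% and 48.9% in day 10, day 16 and day 19 pregnant cells, and 49.4% and 48.3% in week 3 and week 9 virgin cells. The difference of the group means was -0.193 percentage points (pregnant 48.7% ± 0.291, SD, n = 3, virgin 48.8% ± 0.830, SD, n = 2), with p = 0.9 in a two-sided exact permutation test that cannot go below 0.1 in this design. The 3 pregnant libraries lay between the 2 virgin libraries, and the virgin libraries differed from each other by more than the groups did. The sign turned without the week 3 library, to a difference of 0.394 points against week 9 alone.

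The libraries differed most at CpGs with a middle level, defined as a mean of 20 to 80% over the 5 libraries, of which there were 159382. These CpGs averaged 55.7%, 56.7% and 58.3% in the day 10, day 16 and day 19 pregnant libraries, against 59.6% at week 3 and 55.9% at week 9 in virgin cells. The week 9 minus week 3 difference in virgin cells was -3.71 points there. The pregnant mean minus week 3 was -2.67 points, and the pregnant mean minus week 9 was 1.04 points. The pregnant minus virgin difference of -0.811 points had p = 0.6 in the exact permutation test. CpGs under 20% averaged 1.48%, 1.52% and 1.75% in the pregnant libraries, and 1.55% and 1.58% in the virgin libraries. CpGs over 80% averaged 92.1%, 92.8% and 92.1% in the pregnant libraries, and 93.2% and 91.8% in the virgin libraries. On the X chromosome week 3 virgin cells were highest and week 9 virgin cells lowest, at 74.5%, 74.6% and 74.6% in pregnant cells against 75.5% and 74.4% in virgin cells.

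Classes of tiles by CpG density were compared next. The 52750 tiles of 3 to 4 CpGs averaged 70.7%, 71.5% and 72.0% in pregnant cells, and 72.7% and 70.6% in virgin cells. The 8543 tiles of 20 or more CpGs averaged 13.8%, 14.0% and 13.7% in pregnant cells, and 14.0% and 13.7% in virgin cells. Week 9 minus week 3 virgin was thus -2.07 points in the sparse tiles and -0.217 points in the dense tiles. The density classes also differ in level, and which of these goes with the gap between libraries was not tested. Over the 10 classes of CpGs and tiles compared, every adjusted p of the exact permutation tests was 1.

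**Figure D1:**
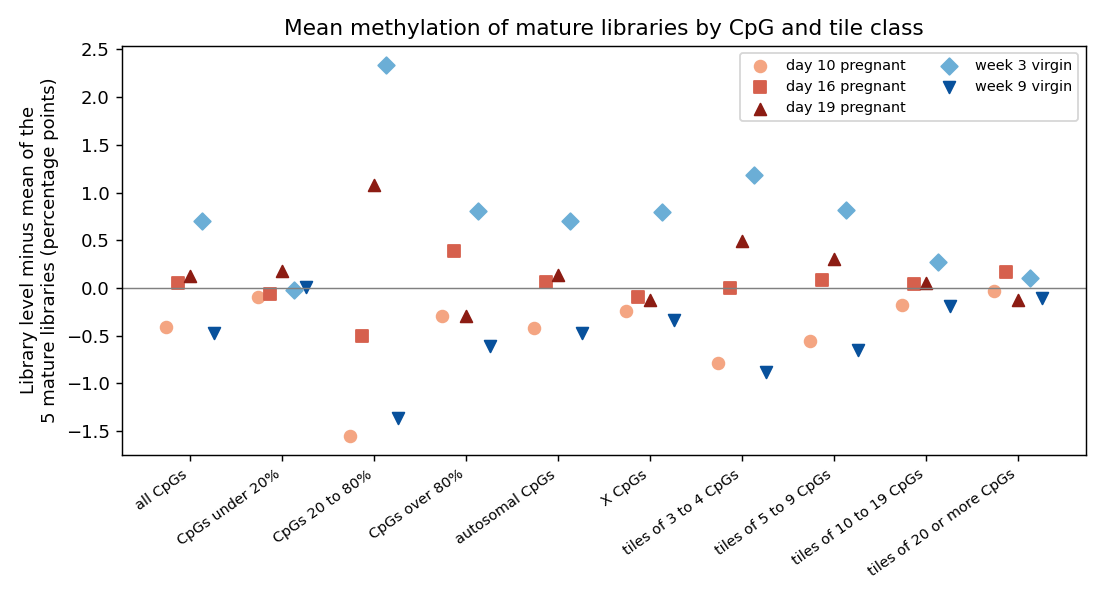
Mean methylation of each mature library, as percentage points from the mean of the 5 libraries (y axis), for 10 classes of CpGs and tiles (x axis), with 1 point per library. The week 3 virgin library is highest and the week 9 virgin or day 10 pregnant library lowest in most classes, and the pregnant libraries lie among the virgin ones.

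No tile passed the test for pregnancy. A quasi-binomial logistic regression was fitted to the reads of each tile, with the dispersion of all tiles used to steady that of each. After Benjamini-Hochberg adjustment over all 103885 tiles, 0 tiles (0%) passed both an adjusted p of 0.05 and a difference of 10 points, and the smallest adjusted p was 1. At an unadjusted p under 0.05 there were 3484 tiles (3.35%), and limma, run on log2 methylated over unmethylated reads, also called 0 tiles, with 3436 at an unadjusted p under 0.05. The steadied dispersion used in the test, held at 1 or above, had a median of 1.83 times the binomial variance. With all 18 libraries sharing the dispersion the count was 0 of 77064 tiles, and 13 tiles, 10 higher and 3 lower in pregnant cells, when the week 3 virgin library was also left out.

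Differences of group means were small at most tiles. The median size of the pregnant minus virgin difference was 1.37 points, and 85.9% of tiles lay within 5 points. A difference of 20 points or more was seen at 267 tiles, of which 84 were higher and 183 lower in pregnant cells. Between the 2 virgin libraries the median difference was 2.07 points and 3383 tiles (3.26%) were 20 points or more apart. A mean over several libraries varies less than a single library, so these counts have different noise.

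**Figure D2:**
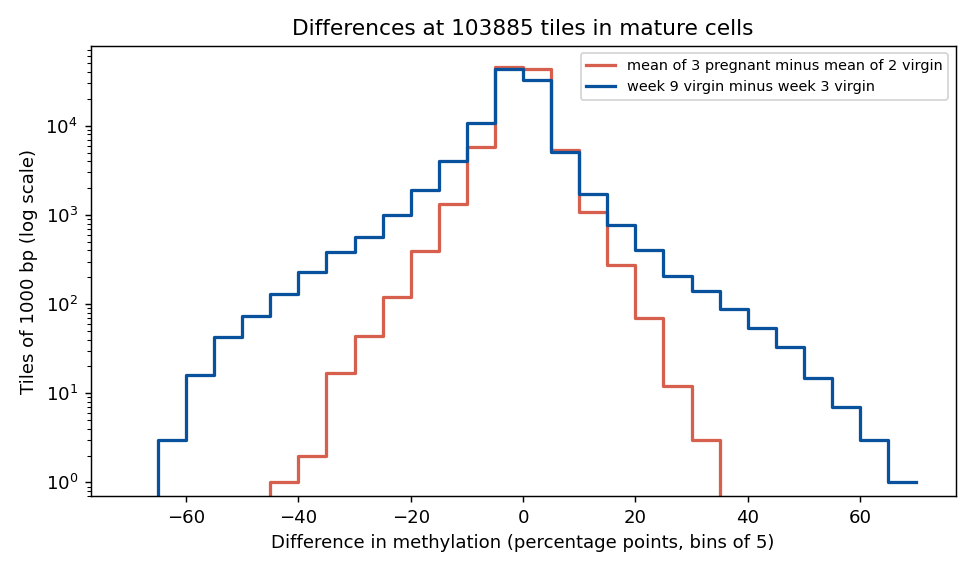
Number of tiles (y axis, log scale) by difference in methylation in bins of 5 percentage points (x axis), for the mean of 3 pregnant minus the mean of 2 virgin mature libraries and for week 9 minus week 3 virgin. The curve of the 2 single virgin libraries is wider, with 3383 tiles at 20 points or more against 267 for pregnant minus virgin.

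The pregnant libraries did not form a group of their own. Day 16 and day 19 pregnant cells differed by a mean of 5.70 points per tile, the widest of all 10 pairs of mature libraries. Day 10 pregnant and week 9 virgin cells differed by 3.66 points, the narrowest pair, and day 10 pregnant and week 3 virgin cells by 3.78 points. The virgin pair differed by 4.29 points, and day 10 differed from day 16 by 4.45 and from day 19 by 4.48 points. Day 16, the shallowest library, took part in both pairs over 5 points, the other being day 16 pregnant and week 9 virgin at 5.53 points, and the part of depth in this was not tested. Steps of at least 10 points in the same direction from day 10 to day 16 and from day 16 to day 19 were seen at 228 tiles upward and 93 downward.

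Tiles at which all 3 pregnant libraries lay above both virgin libraries numbered 6832 (6.58%), and tiles at which all lay below numbered 8942 (8.61%). With group means at least 10 points apart, 519 tiles (0.5%) were higher and 777 (0.748%) lower in pregnant cells, together 1296 (1.25%). The higher tiles averaged 62.9%, 68.2% and 64.8% in the pregnant libraries, and 53.3% and 50.01% in the virgin libraries. The lower tiles averaged 54.8%, 50.8% and 57.0% in the pregnant libraries, and 68.6% and 68.3% in the virgin libraries. These levels are fixed by the way the tiles were chosen and carry no test. A middle level was found at 74.0% of the higher and 79.3% of the lower tiles, against 23.2% of all tiles. The choice itself favours such tiles, since levels near either end of the scale leave little room for 10 points. Tiles of 3 to 4 CpGs made up 85.0% of the higher and 82.1% of the lower tiles, against 50.8% of all, and none had 20 or more CpGs, against 8.22% of all. Reads summed over the CpGs of a tile, in whichever library had the fewest at that tile, had a median of 63 for higher and 72 for lower tiles, against 121 for all. Few CpGs and few reads widen the scatter of a tile, and their part in these counts was not tested. Fewer libraries separate more readily, so the numbers with 1 library left out cannot be set against 1296. The number without 1 library ran from 1858 to 6907, highest without week 3, where 4552 tiles were higher and 2355 lower in pregnant than in week 9 virgin cells. Without week 9 it was 4369, of which 1224 were higher and 3145 lower in pregnant than in week 3 virgin cells.

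The 8 tiles of each direction with the widest difference, at least 50 reads in every library and an unadjusted p under 0.05 are described next. Their adjusted p from the quasi-binomial test was 1 throughout, and their unadjusted p ran from 0.00449 to 0.0447 for higher and from 0.0118 to 0.0396 for lower tiles. The widest higher tile, at chr2:125330001-125331000 (mm9), had 51.0%, 63.4% and 63.3% at day 10, day 16 and day 19 in pregnant cells, and 41.6% and 28.7% at week 3 and week 9 in virgin cells. Its 3 measured CpGs lay between positions 125330473 and 125330632. All 3 pregnant libraries were above both virgin libraries at each of them. The tile with the smallest p, at chr1:89045001-89046000 (mm9), had 52.7%, 40.2% and 37.1% in pregnant cells, against 21.9% and 19.9% in virgin cells. Here the virgin libraries were close together and the lowest pregnant library was well above them.

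A higher tile at chr7:123174001-123175000 (mm9) lay 493 bp upstream of the start of Sox6os, an opposite-strand transcript of the Sox6 gene. It had 67.7%, 71.1% and 55.4% in pregnant cells, and 52.7% and 30.6% in virgin cells. Day 10 and day 16 pregnant cells were above both virgin libraries by more than 10 points there, and day 19 pregnant cells stood close to week 3 virgin cells. Another at chr10:60275001-60276000 (mm9), 18329 bp downstream of the start of Unc5b, a netrin receptor, had 41.3%, 55.5% and 26.6% in pregnant cells, and 21.7% and 15.2% in virgin cells. Both starts were placed by the spacing of CpGs in their promoters, and a nearer gene may exist that could not be placed.

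The 8 named lower tiles shared an order of stages that their choice did not require. In all 8, day 16 pregnant cells were lowest, day 10 next and day 19 nearest to the virgin libraries. The widest, at chr19:55840001-55841000 (mm9), had 57.4%, 18.7% and 76.7% in pregnant cells, against 82.4% and 88.4% in virgin cells, with 312, 225 and 150 reads against 433 and 413. Its 5 CpGs lay within positions 55840613 to 55840740, and day 10 and day 16 pregnant cells were below both virgin libraries at each of the 5. Day 19 pregnant cells were below both at the first CpG alone, with 60.8% against 77.2% and 83.6% in virgin cells. At the second, day 19 had 74.1%, between 63.4% and 85.7% in virgin cells, and at the last 3 it had 100%, 100% and 93.8%, above both virgin libraries, from 14 to 16 reads each. The tile at chr14:73573001-73574000 (mm9) had 48.2%, 39.0% and 81.3% in pregnant cells, against 86.0% in both virgin libraries. The tile at chr5:136704001-136705000 (mm9) had 26.2%, 25.2% and 49.0% in pregnant cells, against 76.4% and 58.5% in virgin cells. A difference of means at these tiles thus stood for day 10 and day 16, and day 19 was within 10 points of the nearer virgin library at each of them. How often this order occurs among all 777 separated lower tiles was not counted. Their means ran the same way, with 50.8% at day 16, 54.8% at day 10 and 57.0% at day 19. The order is therefore not particular to the named tiles. Nor was a low day 16 particular to mature cells. Pregnant progenitor cells had 72.5%, 47.5% and 88.0% at day 10, day 16 and day 19 at chr19:55840001-55841000. They had 90.8%, 39.6% and 95.9% at chr14:73573001-73574000, but 64.2%, 78.0% and 75% at chr9:121298001-121299000. Over the 380 lower tiles measured in all 18 libraries they averaged 59.6%, 56.0% and 58.0%.

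**Figure D3:**
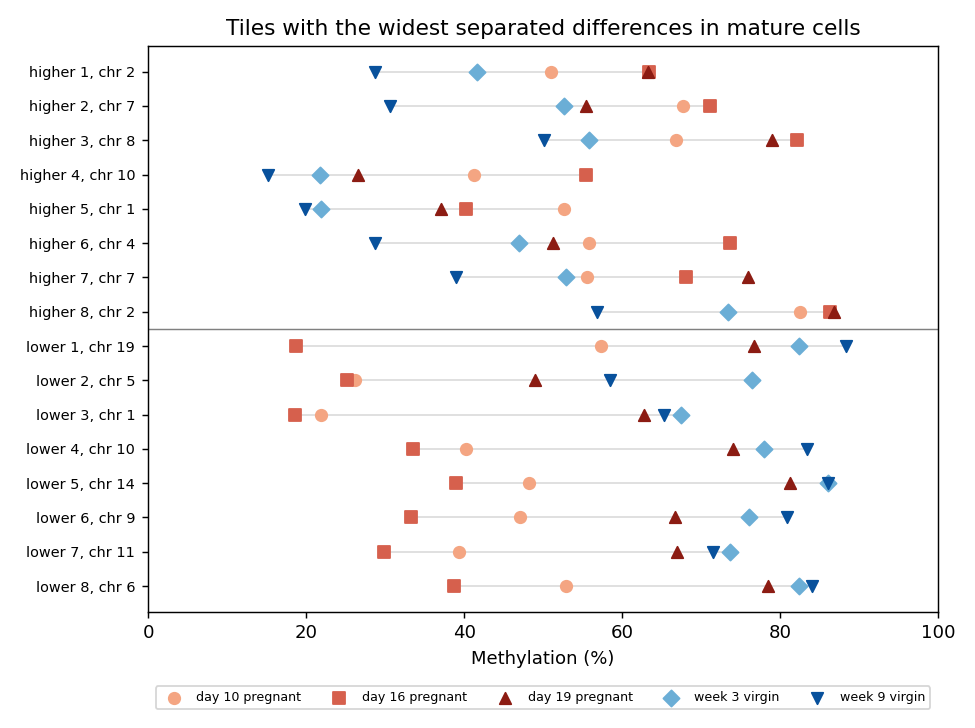
Methylation (x axis, %) of the 8 higher and 8 lower tiles with the widest differences between pregnant and virgin mature libraries, 1 row per tile named by its chromosome and 1 point per library. In the lower tiles the day 19 pregnant points stand beside the virgin points, and the day 10 and day 16 pregnant points stand to the left.

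The difference between the 2 virgin libraries ran more often toward lower levels at week 9. Week 9 was at least 20 points under week 3 at 2431 tiles (2.34%) and at least 20 points over it at 952 tiles (0.916%), with 1 library each and so no test. At the 2431 tiles the virgin libraries averaged 72.3% at week 3 and 43.2% at week 9 by choice. The pregnant libraries, which took no part in that choice, averaged 56.6% at day 10, 69.6% at day 16 and 60.8% at day 19. Day 10 was nearer to week 9 than to week 3 at 53.4% of these tiles, day 16 at 15.3% and day 19 at 35.1%. At the 952 tiles with the opposite order, where week 3 averaged 28.7% and week 9 57.9%, pregnant cells averaged 38.0% at day 10, 24.3% at day 16 and 50.7% at day 19. There day 10 was nearer to week 9 at 30.8% of tiles, day 16 at 9.77% and day 19 at 70.6%. Day 16 pregnant cells were on the side of week 3 in both sets, and day 10 and day 19 cells took intermediate means.

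Among tiles with at least 50 reads in every library, the one furthest over week 3, at chr11:69174001-69175000 (mm9), had 31.8%, 3.64% and 58.2% at day 10, day 16 and day 19 in pregnant cells, and 11.3% and 74.9% at week 3 and week 9 in virgin cells. Its order of libraries, day 16, week 3, day 10, day 19 and week 9, was also that of the tile at chr3:88176001-88177000 (mm9), 7490 bp downstream of the start of Paqr6, a progestin and adipoQ receptor family member. That tile had 31.7%, 4.17% and 65.4% in pregnant cells, and 16.6% and 79.5% in virgin cells. The one furthest under week 3, at chr4:129799001-129800000 (mm9), had 64.7%, 85.1% and 69.1% in pregnant cells, and 91.2% and 27.4% in virgin cells. It lay 15795 bp downstream of the start of Hcrtr1, an orexin receptor. All 3 pregnant libraries were on the week 3 side of it.

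The same tiles were also read in the other cell types. At the 1454 tiles with week 9 under week 3 that were measured in all 18 libraries, pregnant stem cells averaged 39.3%, 35.1% and 37.6% at day 10, day 16 and day 19, against 58.4% and 61.5% in virgin stem cells of week 3 and week 9. Pregnant progenitor cells averaged 62.6%, 66.3% and 58.0%, against 55.4% and 62.6% in virgin progenitor cells. Mature cells of retired breeders, a single library, averaged 65.0%. In stem cells the pregnant libraries thus lay below both virgin libraries at tiles where mature pregnant cells were spread between their virgin libraries. At the 520 tiles with week 9 over week 3, pregnant progenitor cells averaged 40.8%, 27.7% and 48.4% at day 10, day 16 and day 19. Pregnant mature cells had the same order of stages there, at 33.7%, 19.4% and 48.0%. The virgin progenitor libraries, at 45.8% and 31.4% for week 3 and week 9, had the opposite order to the virgin mature libraries.

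**Figure D4:**
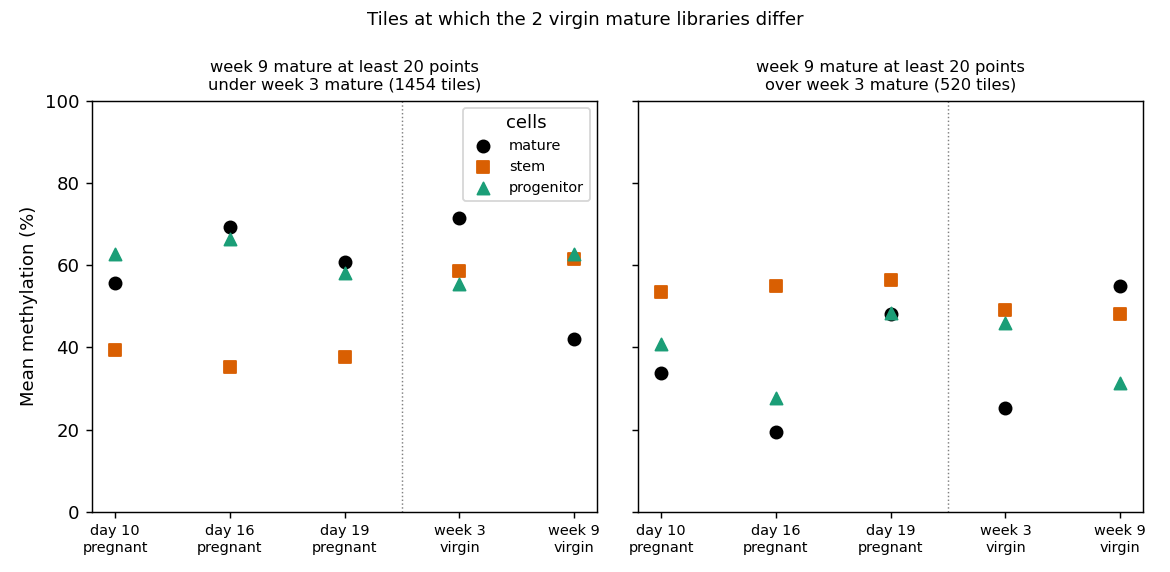
Mean methylation (y axis, %) at tiles where the week 9 virgin mature library was at least 20 points under (left, 1454 tiles) or over (right, 520 tiles) the week 3 virgin mature library, by stage (x axis) and cell type, with 1 point per library. At the left the 3 pregnant stem libraries lie between 35.1% and 39.3% and the 2 virgin stem libraries at 58.4% and 61.5%.

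The pregnancy difference of mature cells was set against that of the other cell types in a model of all 18 libraries over 77064 tiles. The quasi-binomial test of the difference between mature and stem cells called 0 tiles (0%), with 8741 (11.3%) at an unadjusted p under 0.05 and a smallest adjusted p of 0.0817, and limma called 0 with 5845 unadjusted. Without the week 3 mature library it called 1264 tiles. Between mature and progenitor cells it called 0 tiles (0%), with 3592 (4.66%) unadjusted and a smallest adjusted p of 0.813, and limma called 0 with 1718 unadjusted. Of the higher separated tiles, 240 were measured in all libraries, and 25.8% of them were also higher in pregnant stem cells, against 39.7% of all tiles. In progenitor cells 63.3% were also higher in pregnancy, against 49.8% of all tiles. Of the 380 lower tiles so measured, 43.4% were also lower in pregnant stem cells, against 58.3% of all tiles, and 38.9% in progenitor cells, against 49.0% of all tiles. The single library of retired mature cells was closer to the mean of pregnant than of virgin mature cells at 165 of the 240 higher tiles. At the lower tiles this was so at 182 of 380. The share over all tiles was not computed, so these counts cannot show whether retired cells lean to either group.

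Promoters were read through RefSeq windows of 250 bases before and 50 after each gene's start. A window was tied to the files where the spacing of at least 6 listed CpGs matched that window alone on its chromosome. This gave 5757 genes with at least 3 measured CpGs, and 4752 with at least 8 matched CpGs, the minimum for a gene to be named. Windows with few CpGs could not be tied, so most milk protein and marker genes are not measured here. Of the 4752 promoters, 95.6% had a mean level under 10% and the median level was 0.205%.

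No promoter passed the test either. The quasi-binomial test called 0 of 5757 promoters (0%), with a smallest adjusted p of 0.868 and 108 (1.88%) at an unadjusted p under 0.05, and limma called 0 with 410 unadjusted. All pregnant libraries were above both virgin libraries at 231 promoters (4.01%) and below both at 513 (8.91%). By 10 points or more these were 4 (0.0695%) and 6 (0.104%), with windows tied by fewer than 8 CpGs included. With at least 8 matched CpGs, such lower promoters were 1 of 130 on the X chromosome and 2 of 4622 on autosomes. The promoters named next have at least 8 matched CpGs. They are those with the widest differences without overlap and an unadjusted p under 0.05, with an adjusted p of 0.868 each. Among them the widest rise was 9.29 points, at Npm3.

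The upstream sequences of Igf2r, Htatsf1 and Gng10, the named lower promoters with the widest differences, and of Lep, the promoter at which the virgin libraries lay furthest apart, are given to show which CpGs carried the values. They are from RefSeq on GRCm38.p6, read 5′ to 3′ on the strand of the gene, and the CpGs measured in all 5 mature libraries are in capitals. Igf2r is at chr17:12769707-12769956 on the minus strand, Htatsf1 at chrX:57053584-57053833 on the plus strand, Gng10 at chr4:59034906-59035155 on the plus strand and Lep at chr6:29059971-29060220 on the plus strand. Of the CpGs in these stretches, 8 of 27 were measured in Igf2r, 3 of 31 in Htatsf1, 5 of 18 in Gng10 and 6 of 16 in Lep.
Igf2r: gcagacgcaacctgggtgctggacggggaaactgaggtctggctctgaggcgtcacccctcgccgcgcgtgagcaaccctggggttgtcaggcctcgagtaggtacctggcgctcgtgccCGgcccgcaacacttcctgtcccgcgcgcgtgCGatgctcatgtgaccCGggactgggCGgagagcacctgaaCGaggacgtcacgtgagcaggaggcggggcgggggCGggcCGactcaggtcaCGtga
Htatsf1: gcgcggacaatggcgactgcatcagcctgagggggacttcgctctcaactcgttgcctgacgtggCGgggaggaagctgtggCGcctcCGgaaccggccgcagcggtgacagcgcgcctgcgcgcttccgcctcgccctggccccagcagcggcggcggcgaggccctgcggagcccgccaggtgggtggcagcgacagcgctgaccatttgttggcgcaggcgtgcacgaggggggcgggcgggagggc
Gng10: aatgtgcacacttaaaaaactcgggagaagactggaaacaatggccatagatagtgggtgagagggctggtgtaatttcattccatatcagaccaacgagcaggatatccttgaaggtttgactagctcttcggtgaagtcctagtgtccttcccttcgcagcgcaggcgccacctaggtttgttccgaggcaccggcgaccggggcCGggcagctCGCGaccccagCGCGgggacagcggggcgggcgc
Lep: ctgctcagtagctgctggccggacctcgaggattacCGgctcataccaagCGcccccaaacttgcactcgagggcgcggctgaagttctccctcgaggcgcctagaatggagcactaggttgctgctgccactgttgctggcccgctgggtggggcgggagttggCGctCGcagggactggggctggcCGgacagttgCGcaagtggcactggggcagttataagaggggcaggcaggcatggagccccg

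Igf2r encodes the receptor that clears insulin-like growth factor 2, and is imprinted, with its promoter methylated on the silent paternal copy. Over 14 measured CpGs it had 40.5%, 32.4% and 31.8% at day 10, day 16 and day 19 in pregnant mature cells, against 44.6% and 45.02% at week 3 and week 9 in virgin mature cells. Over the window the groups did not overlap, and the difference was -9.90 points with an unadjusted p of 0.0323 in the quasi-binomial test. Among the capital CpGs they were apart at the seventh and eighth alone, and after the start at the first and second alone. The fifth capital had 50%, 30.4% and 30.8% in pregnant cells, and 43.9% and 38.4% in virgin cells. The second had 100% at day 16, at a CpG where the library with the fewest reads had 5. The Wilson 95% interval of counting error was 36.7 to 44.4% at day 10 and 41.7 to 47.5% at week 3. The counting errors of these neighbours thus overlapped. Both intervals rest on reads summed over the 14 CpGs, and are too narrow where a read covers several of them. In progenitor cells the same CpGs had 36.2%, 30.1% and 28.05% in pregnant libraries, against 46.2% and 44.2% in virgin libraries, again with no overlap. In stem cells they had 36.6%, 48.0% and 40.2% in pregnant libraries, and 38.3% and 37.4% in virgin libraries, which overlap. Retired mature cells had 36.0%.

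Htatsf1, an X-linked splicing factor gene, had 27.5%, 26.3% and 26% in pregnant mature cells, against 51.7% and 46.5% in virgin mature cells. Its difference of -22.5 points was the widest among the named promoters (unadjusted p = 0.0117 in the quasi-binomial test). It rested on 3 CpGs, over which the reads summed to 69, 38 and 50 in pregnant libraries, and 147 and 142 in virgin libraries. The first of the 3 capitals had 34.8%, 8.33% and 37.5% in pregnant cells, and 35.4% and 45.7% in virgin cells, and there the groups overlapped. The second had 4.35%, 23.1% and 6.67% in pregnant cells, and 46.8% and 40.8% in virgin cells. The third had 43.5%, 46.2% and 31.6% in pregnant cells, and 71.2% and 53.2% in virgin cells, so the gap lay at the second and the third. Progenitor cells went the other way for the most part, with 12.5%, 55.2% and 58.6% in pregnant libraries, and 10.5% and 30.1% in virgin libraries. Stem cells had 6.67%, 11.1% and 45.5% in pregnant libraries, and 50% and 25.8% in virgin libraries, so no order was shared between cell types.

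Gng10, a gamma subunit of heterotrimeric G proteins, had 3.46%, 0% and 0.675% in pregnant mature cells, against 16.4% and 10.6% in virgin mature cells. At day 16 it had 0 of 189 reads, summed over 11 CpGs. This allows a level of up to 1.59% by a floor of 3 reads, and the Wilson 95% upper limit is 1.99%. Both limits are too narrow where a read covers several of these CpGs. At single CpGs the library with the fewest reads had 10 to 23. The 5 capital CpGs had 0% in all 3 pregnant libraries, and between 4.35% and 8.62% in the 2 virgin libraries. The 6 other measured CpGs lie in the 50 bases after the start, and there the week 3 library reached 25%. Npm3, a nucleoplasmin family histone chaperone gene, was the widest of the named promoters in the other direction. It had 20.1%, 14.5% and 15.8% in pregnant cells, against 6.92% and 8.01% in virgin cells (unadjusted p = 0.00339 in the quasi-binomial test).

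The other named lower promoters differed by -8.69 to -6.29 points and included X-linked and housekeeping genes. Slc25a53, an X-linked mitochondrial carrier, had 37.8%, 33.5% and 31.8% in pregnant cells, and 44.2% and 41.8% in virgin cells. Timm8a1, an X-linked mitochondrial import chaperone, had 30.9%, 24.9% and 30.6% in pregnant cells, and 34.9% and 36.5% in virgin cells. Armcx5 and Gprasp1, which share a window on the X chromosome, had 29.5%, 23.9% and 28.2% in pregnant cells, and 33.0% and 34.0% in virgin cells. Rpl31, a ribosomal protein gene, had 20.6%, 24.04% and 26.4% in pregnant cells, and 29.4% and 33.0% in virgin cells. Gm12404 and Rab10os completed them, at -7.41 and -6.66 points. Among the named higher promoters, Fgf13, an X-linked intracellular relative of fibroblast growth factors, had 18.2%, 19.8% and 21.7% in pregnant cells, and 15.2% and 12.7% in virgin cells. Astn2, an astrotactin gene, had 5.83%, 13.0% and 10.0% in pregnant cells, and 4.44% and 2.93% in virgin cells. Gm40881, Gm41845, Gm30134, Gm10584, Dscam, Wnt10b and Slc7a10 differed by 1.42 to 6.74 points, and the last 4 were under 5% in every library.

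X-linked promoters did not move together. Of 130 tied X promoters, 127 (97.7%) had a mean of at least 10%, against 83 of 4622 autosomal promoters (1.796%). Their median was 27.8%, 28.9% and 26.3% in pregnant cells, and 27.6% and 26.96% in virgin cells. The pregnant mean was lower at 65 of the 130, and pregnant libraries were all below the virgin ones at 13 and all above at 11. The promoters of 15 autosomal genes at 80% or more lay between 80.9% and 98.0% in every library, and their pregnant minus virgin differences ran from -2.94 to 2.67 points. Libraries thus differed at autosomal promoters mainly among the 39 of middle level, 10 of which were at least 10 points apart between week 9 and week 3.

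**Figure D5:**
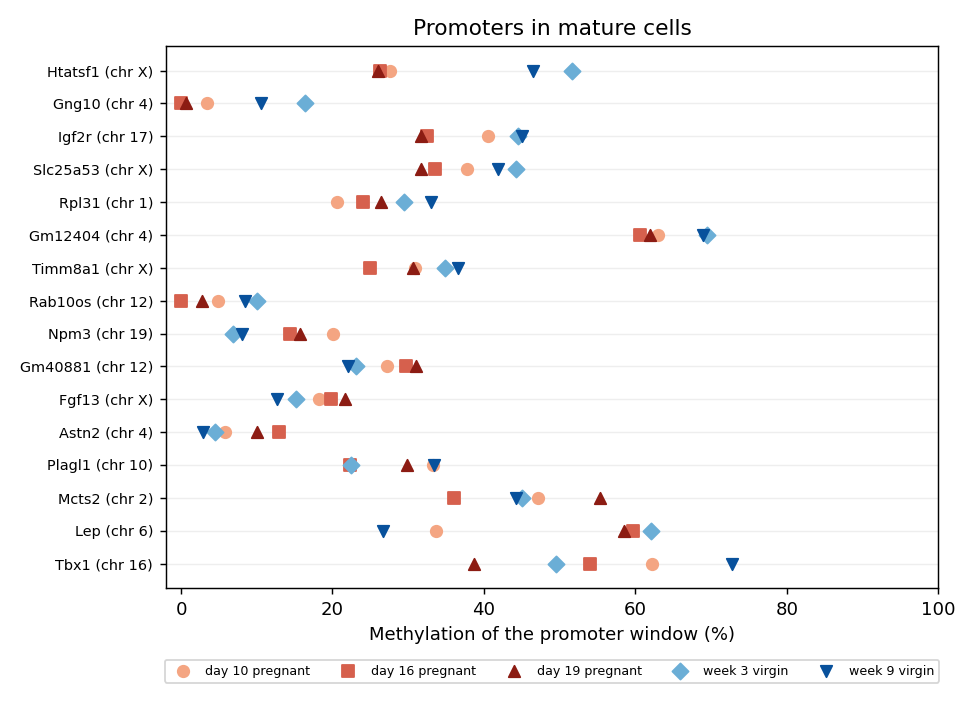
Methylation of promoter windows (x axis, %) in the 5 mature libraries, 1 row per gene with its chromosome and 1 point per library. The upper 8 rows are lower and the next 4 higher in all pregnant than in both virgin libraries, and the last 4 rows, Plagl1, Mcts2, Lep and Tbx1, show libraries of both groups mixed.

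Among imprinted genes, 4 of 27 listed had a tied promoter. Igf2r is described above. Mcts2, a retrogene expressed from the paternal copy, had 47.2%, 36.1% and 55.4% in pregnant cells, and 45.1% and 44.3% in virgin cells. Plagl1, an imprinted zinc finger factor, had 33.3%, 22.3% and 29.8% in pregnant cells, and 22.5% and 33.5% in virgin cells. Igf2, whose tied window is unmethylated, was at 1.82% or less in every library. Day 16, the library with the fewest reads, was lowest among the pregnant libraries at Mcts2 and Plagl1, and week 9 minus week 3 virgin was -0.787 points at Mcts2 and 11.0 points at Plagl1.

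The tied promoters of genes of hormone response and milk synthesis were under 5% in every library, in virgin and in pregnant cells, as were most promoters: 95.6% of all 4752 had a mean under 10%. Of 18 hormone receptors and luminal transcription factors, 3 were tied, Gata3, which maintains luminal identity, the oestrogen target Greb1 and the retinoic acid receptor Rara, and none was above 2.44% in any library. Of 20 genes of prolactin signalling, 4 were tied, and Stat5a was at 0% in all 5 libraries, from 224 to 440 reads in pregnant and 598 to 703 reads in virgin cells. Jak2, the kinase of the prolactin receptor, and its inhibitor Socs1 were at 0.380% or less in every library. Of 19 milk protein genes, only Mfge8, a milk fat globule protein, was tied, at 0.107%, 1.54% and 0% in pregnant cells, and 0% and 0.302% in virgin cells. Of 29 genes of milk lipid and lactose synthesis, 11 were tied, among them the fatty acid synthase gene Fasn, Acly, Srebf1 and Gpam, and the highest value in any library was 4.88%, at Srebf1 in week 3 virgin cells. None of these lists had a called member, and no member was 10 points apart between the groups.

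The label of mature luminal cells could not be checked on marker promoters. The tied luminal, luminal progenitor, basal, immune and endothelial ones were nearly unmethylated in all 5 mature libraries. Of 14 fibroblast and adipocyte markers only Lep, described below, was tied. It ranged from 26.6% to 62.0%, and a single promoter cannot settle which cells a library held. The single tied luminal marker, Cldn7, was at or under 0.360% in every mature library, the single luminal progenitor marker, Kit, at or under 0.971%, and the 3 basal markers, Itgb1, Oxtr and Cdkn1b, at or under 2.71%. Oxtr, the oxytocin receptor gene, was at 0% in all 3 pregnant libraries, and 0.654% and 2.71% in virgin libraries (unadjusted p = 0.0244 in the quasi-binomial test). The immune marker Coro1a was at 1.36%, 2.37% and 4.15% in pregnant cells, and 1.71% and 0.302% in virgin cells, and the endothelial markers Kdr and Flt1 were at or under 1.26%. Whether the share of other cells differed between libraries was not tested.

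Of 25 genes of Wnt, Notch and TGF-beta signalling, 9 were tied and 8 were under 6% in every library, among them Lef1, Tcf7, Notch3 and Jag1. The exception was Bmp4, a secreted growth factor, with 12.3%, 3.13% and 14.5% in pregnant cells, and 16.4% and 17.8% in virgin cells. Its reads, summed over 8 CpGs, were 138, 64 and 110 in pregnant and 274 and 376 in virgin libraries. Of 12 genes of the methylation machinery, 4 were tied, Dnmt3a, Uhrf1, Tet3 and Tdg, and none was above 5.52% in any library.

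The virgin libraries were at least 20 points apart at 3 of the 4752 promoters. Lep, the adipocyte hormone leptin, had 33.6%, 59.7% and 58.4% at day 10, day 16 and day 19 in pregnant cells, and 62.0% and 26.6% at week 3 and week 9 in virgin cells. Over the window, day 10 pregnant stood with week 9 virgin cells, and day 16 and day 19 pregnant with week 3 virgin cells. Single CpGs did not all keep this order. The fifth of the 6 capital CpGs had 19.8%, 48.6% and 42.7% in pregnant cells, and 52.2% and 13.7% in virgin cells. The sixth had 82.4%, 45.5% and 85.5% in pregnant cells, and 89.3% and 25.8% in virgin cells, so day 10 stood with week 3 there. The third had 10.3%, 78.3% and 63.6% in pregnant cells, and 34.3% and 38% in virgin cells, so the virgin libraries were close there. In stem cells Lep had 33.9%, 15.3% and 18.0% in pregnant libraries, against 59.0% and 61.7% in virgin libraries. In progenitor cells it had 55.9%, 52.0% and 59.7% in pregnant libraries, and 39.2% and 53.1% in virgin libraries. Pregnant libraries thus lay below both virgin libraries in stem cells and not in mature or progenitor cells. Tbx1, a T-box factor, had 62.2%, 54.0% and 38.7% in pregnant mature cells, and 49.6% and 72.7% in virgin mature cells. The predicted gene Gm13205 had 52.3%, 83.7% and 62.5% in pregnant mature cells, and 64.8% and 39.2% in virgin mature cells.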

How the data were processed

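Per the labels' protocols, genomic DNA was cut with MspI, treated with bisulfite and sequenced, and per the submitters' processing notes positions are on mm9. Which aligner, caller and read filters were used is not given in the sources used here. The deposited column used holds whole-number read counts written by the authors as methylated reads over all reads at each CpG, and 11 files have 4 columns and 7 have 6. From these counts, CpGs with at least 5 reads in all 5 mature libraries and tiles of 1000 bp with at least 3 such CpGs were formed. A tile's level is its methylated over all reads. Groups were compared with a quasi-binomial logistic regression (Python 3.11.15, numpy 2.4.6, scipy 1.17.1), with the Pearson dispersion moderated across features as in limma and held at 1 or above, a two-sided F test and Benjamini-Hochberg adjustment, and called at an adjusted p under 0.05 and 10 points. The test was tested on simulated data. limma 3.58.1 in R 4.3.3, on log2 of methylated over unmethylated reads with 1 added to each, was the alternative.

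RefSeq promoters are on GRCm38.p6, so no coordinates were carried to mm9. Of 32851 windows, 18541 had at least 6 CpGs and 6831 were tied by CpG spacing, against 1172 reversed sequences. With at least 8 matched CpGs these were 5458 and 37, a minimum for naming set after the reversed sequences were counted, and 5438 of 5439 neighbouring pairs kept the reference order. Named tiles and promoters were the widest non-overlapping differences at an unadjusted p under 0.05 with at least 50 (tiles) or 20 (promoters) reads in each library, 8 tiles and 10 promoters a direction, the 5 widest virgin differences each way, and the first 4 measured genes of each list. Other genes named, such as the remaining tied markers and the promoters with virgin libraries 20 points apart, were picked after their values were seen. Mouse chromosome 18 was left out of named items. The groups and gene lists were chosen with earlier results of these data known. Intervals and floors (3 reads) cover counting error only, since reads carry no molecular identifiers. They rest on reads summed over the CpGs of a window, so they are too narrow where a read covers several CpGs.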

Additional observations from a re-analysis of the deposited data

Results flagged for a closer look

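At 4 of the 8 named higher tiles, pregnant and virgin libraries differed in opposite directions in mature and in stem cells, with every pregnant library on 1 side of both virgin libraries in each cell type. The difference between the cell types was tested with the quasi-binomial model of 18 libraries and missed an adjusted p of 0.05 at all 4. At chr7:6135001-6136000 (mm9) the pregnant minus virgin difference was 20.6 points in mature and -36.1 points in stem cells, 56.6 points apart (adjusted p = 0.210). At chr4:153166001-153167000 it was 22.4 points in mature and -23.8 points in stem cells, 46.2 points apart (adjusted p = 0.131). At chr2:125330001-125331000 it was 24.1 points in mature and -21.0 points in stem cells, 45.1 points apart (adjusted p = 0.136). At chr2:164203001-164204000 it was 20.1 points in mature and -22.0 points in stem cells, 42.1 points apart (adjusted p = 0.101). The tiles were picked for their difference in mature cells, so its size there is no evidence, and in all 4 the week 9 virgin mature library was the lowest of the mature libraries. At 2 others of the 8, pregnant stem libraries were all higher, by 9.84 points at chr7:123174001-123175000 and 18.6 at chr10:60275001-60276000. Of all 77064 tiles, 39.7% were higher in pregnant stem cells. The share of all tiles with opposite, separated directions was not computed.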

How the results depend on the processing

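No tile was called in 19 of 20 alternatives, among them smaller tiles, single CpGs and each library left out. The exception, chosen after seeing the data, was the fit of all 18 libraries without week 3 virgin mature, with 13 calls. No promoter was called in any alternative run. The 1296 tiles with separated groups became 851 with at least 10 reads per CpG, 217 with at least 5 CpGs per tile, 682 at CpGs read in all 18 libraries, 109 with a difference of at least 20 points, 2094 with reads thinned to the shallowest library, and 1858 to 6907 with 1 library left out. Fewer libraries separate more readily, so the counts with 1 library left out cannot be set against 1296. The 3383 tiles with week 9 and week 3 at least 20 points apart became 852 with at least 5 CpGs. They became 2045 at CpGs read in all 18 libraries and 11825 at 10 points. Calls for mature minus stem cells ran from 0 to 1264 with 1 mature library left out, 1264 without week 3 and 1 without day 10, and stayed at 0 for mature minus progenitor cells. With 1 library left out, the pregnant minus virgin difference ran from -0.780 to 0.394 points over all CpGs, from -2.67 to 1.04 at middle CpGs, from -0.0672 to 0.0669 under 20%, from -0.869 to 0.537 over 80%, from -0.772 to 0.404 on autosomes and from -0.950 to 0.181 on the X. By CpGs per tile it ran from -1.28 to 0.785 (3 to 4), from -0.876 to 0.591 (5 to 9), from -0.301 to 0.160 (10 to 19) and from -0.109 to 0.108 (20 or more). The sign turned without week 3 in all of these except CpGs under 20%, without day 10 in all 4 tile classes (0.0924, 0.108, 0.00225 and 0.0173), and without day 19 in tiles of 20 or more CpGs (0.0636) and CpGs under 20% (-0.0672), and the cause was not tested. Pregnant and virgin libraries could not be paired, because the stages of pregnant and virgin mice share no number in the labels. In the tests between cell types, libraries of the same stage were not paired, and all 18 were treated as independent. A median of 25 reads per CpG at day 16 limits what a single CpG can show.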
